A study of Mus musculus with 31 samples.

Results

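The immunity-related GTPases (IRGs) are described here through 7 mouse genes, Irgm1, Irgm2, Igtp, Iigp1, Ifi47, Tgtp1 and Tgtp2. They were taken by gene name as members of the family, and the family was chosen with earlier results of these data known. All 7 were found under the same Ensembl identifier in both tables of counts, that is 7 of 54532 genes in primary microglia and 7 of 48795 genes in hippocampi. RNA-seq was made from hippocampi of 6 P301S mice, which express human tau carrying P301S from a transgene, and of 7 mice without the transgene (Ntg). According to the labels these mice were 8 to 9 months old, with 3 females in each group. The Cgas genotype of these mice is not given in the sources used here. Primary microglia grown from the cortices of newborn pups were either wild type (Cgas+/+, WT) or lacked the DNA sensor cGAS (Cgas-/-, labelled Cgas KO). Cells of each genotype received vehicle, tau fibrils at 2 µg/ml or herring testis DNA (HT-DNA) at 1 µg/ml for 6 h, with 3 libraries in each of the 6 groups. The labels call the controls of both genotypes vehicle, but their names hold Ctrl in WT and NT in KO. The study's legend describes cells without an agent as not treated. Whether the controls of the 2 genotypes were handled alike is not stated. HT-DNA is foreign DNA that serves as a positive control for cGAS. Cultured microglia from pups had been kept in mixed glial culture with a growth factor, and so they are a model of, and not the same as, microglia of the adult brain. The study's text calls its microglial samples biologically independent, but neither it nor the labels say whether the 3 libraries of a group came from separate cultures, so the p-values measure the spread between these libraries, which may be technical in part.

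IRGs are large GTPases that are switched on by interferons. Interferons bind receptors whose Janus kinases phosphorylate STAT proteins, which enter the nucleus and bind promoter elements called ISRE (interferon-stimulated response element) and GAS (gamma-activated site). In mouse cells the effector IRGs load onto the vacuole membranes of intracellular parasites and break them open, and the regulatory IRGs sit on the cell's own membranes and keep the effectors inactive there. The regulators carry a methionine in the first nucleotide-binding motif (the GMS class, here Irgm1, Irgm2 and Igtp, also called Irgm3), and the effectors carry a lysine (the GKS class, here Iigp1 or Irga6, Ifi47 or Irgd, and Tgtp1 and Tgtp2, together Irgb6). Irgm1 is also known for a part in autophagy and mitochondrial upkeep.

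Of the 7 genes 6 lie on chromosome 11 (GRCm38, GENCODE M21), in a group of 4 and a group of 2, and Iigp1 lies on another chromosome. Irgm1 (48861968 to 48871683, minus strand), Tgtp1 (48985327 to 48994172, minus strand), Tgtp2 (49057194 to 49064206, minus strand) and Ifi47 (49076587 to 49096974, plus strand) fall within 235 kb. Igtp (58199556 to 58207591) and Irgm2 (58199618 to 58222782) lie on the plus strand within 23.2 kb, and their annotated exons share 162 bases. Tgtp1 and Tgtp2 are near-identical copies. Of the 50-base words of the annotated Tgtp1 transcripts 79.4% also occur in Tgtp2, and 85.8% of those of Tgtp2 occur in Tgtp1, so that reads could be split between the 2 or dropped, and their single values are uncertain. In the other 5 genes the share of words found in any other gene was 0.310% (Irgm1) to 11.8% (Igtp, with Irgm2).

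The promoters are shown as a description, and no link between their letters and the levels below was tested. RefSeq (GRCm38.p6) windows from 250 bases before to 50 bases after the start site were held for 6 of the 7 genes, and Iigp1 had none in the table. The ISRE was searched as GAAA, any 2 bases, GAAA, and the GAS as TTC, any 3 bases, GAA, on both strands. Of the 6 windows 5, all but that of Ifi47, held the ISRE spelling. Of all 32851 promoter windows in the table, 3.44% held the ISRE spelling and 8.30% the GAS spelling. In Irgm2, Igtp, Tgtp1 and Tgtp2 a GAS lay just before the ISRE, and such a pair within 10 bases occurred in 0.131% of all windows. The 30 bases around these matches are given 5′ to 3′ on the strand of each gene, with the motif spellings in capitals. In Irgm1, 2 ISRE matches overlap and the window has no GAS.
Irgm1 (chr11:48871433-48871462, minus strand): agcctgtttcaaGAAATAGAAACCGAAAct
Irgm2 (chr11:58214895-58214924, plus strand): tagccatTTCCAGGAActGAAACTGAAAgc
Igtp (chr11:58199504-58199533, plus strand): tagccatTTCTAGGAActGAAACTGAAAgc
Tgtp1 (chr11:48992312-48992341, minus strand): tagccatTTCCAGGAAtcGAAACTGAAAcc
Tgtp2 (chr11:49064271-49064300, minus strand): tagccatTTCCAGGAAtcGAAACCGAAAcc
In all 5 windows 18 of the 30 positions were the same. Irgm2 and Igtp were the same at 29 positions, as were Tgtp1 and Tgtp2, whereas Irgm1 shared 18 positions with Irgm2 and with Igtp. Between Irgm2 or Igtp and Tgtp1 or Tgtp2, 25 to 27 positions were the same. The windows with a GAS are thus much alike and do not count as separate finds. These are matches of letters only, and nothing about binding was measured. For Ifi47, whose window held neither spelling, the result says only that these letters are not in that window.

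**Figure D1:**
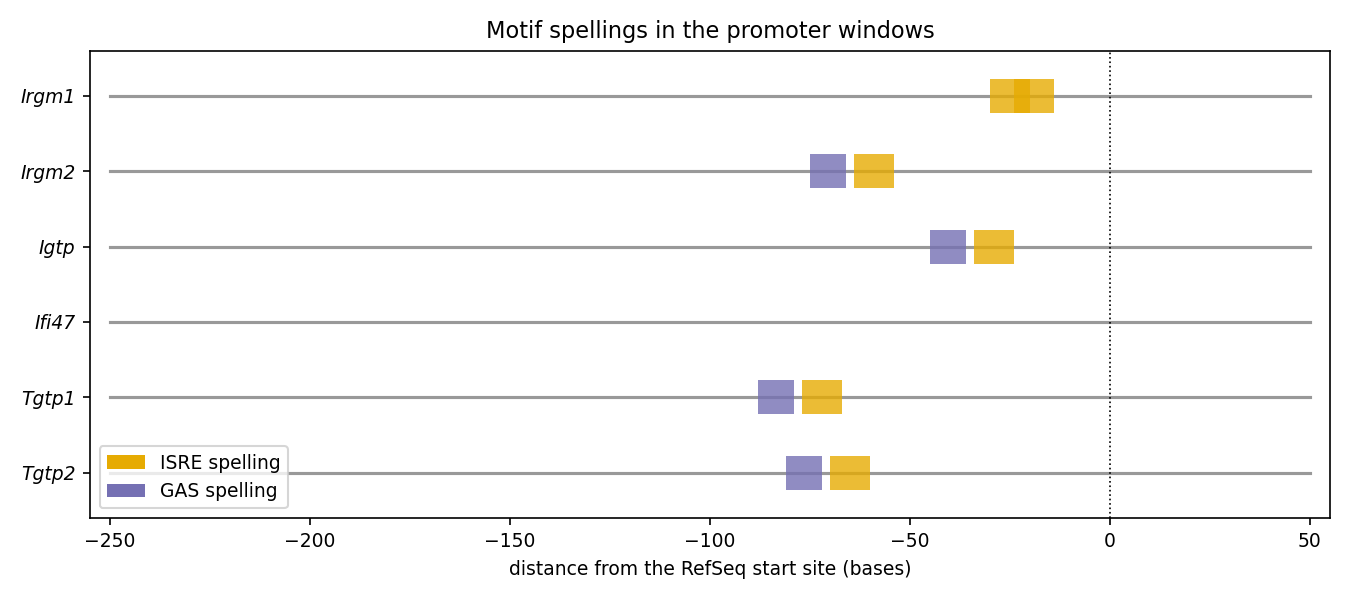
Positions of the ISRE and GAS spellings in the promoter windows of 6 IRG genes, with distance from the RefSeq start site in bases on the x axis. Grey lines are the windows, and boxes are the matches. In Irgm2, Igtp, Tgtp1 and Tgtp2 the GAS precedes the ISRE, Irgm1 has 2 overlapping ISRE matches, and Ifi47 has no match.

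Total counts per library were 17037459 to 25174764 in microglia and 25953296 to 35779977 in hippocampi. Levels are given as normalized CPM, which scales counts to the TMM-adjusted library size. The deleted gene Cgas (listed as Mb21d1) was at 3.76 to 7.45 CPM in the 9 KO libraries and at 18.8 to 44.3 CPM in the 9 WT libraries, and Mapt, which encodes tau, was at 858 to 1125 CPM in P301S hippocampi and at 519 to 642 CPM in Ntg hippocampi. The remaining reads on Cgas in KO cells were not resolved by position, so the gene checks the labels only by its level. In microglia, all 5 general macrophage or microglia markers and 6 of 7 homeostatic markers were detected in every group, and Siglech was at 3 or fewer counts in each library of 3 groups. The Cgas KO HT-DNA replicate 1 stood apart, with a chi-square per gene of 22.4 and 28.0 against its group mates where replicates 2 and 3 gave 4.16. In WT vehicle cells replicate 1 had the highest level of all 7 members, and replicate 2 the lowest, as the values below show.

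In WT microglia all 7 members were higher with tau fibrils, and all 7 with HT-DNA, than with vehicle. Tau and HT-DNA were each compared with the same 3 vehicle libraries. Among the GMS regulators, Irgm1 was at 206, 118 and 167 CPM in vehicle replicates 1, 2 and 3, at 349.9, 307 and 360.1 CPM with tau, and at 496, 526 and 523 CPM with HT-DNA. The 3 sets did not overlap. The log2 fold change of Irgm1 was 1.05 ± 0.11 (SE, adjusted p = 7.2e-09) with tau and 1.65 ± 0.11 (adjusted p = 3.3e-13) with HT-DNA by edgeR's quasi-likelihood test. Irgm2 went from 118, 66.1 and 91.8 CPM to 215, 177 and 217 CPM with tau, a log2 fold change of 1.14 ± 0.11, and to 254, 272 and 257 CPM with HT-DNA, 1.503 ± 0.11. Igtp went from 63.7, 35.6 and 50.1 CPM to 137, 119.5 and 148 CPM with tau, a log2 fold change of 1.43 ± 0.11, and to 195, 230.3 and 220.0 CPM with HT-DNA, 2.11 ± 0.11. The regulators thus rose by 2.07- to 2.70-fold with tau and by 2.83- to 4.32-fold with HT-DNA.

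The GKS effectors had larger log2 fold changes than the regulators, a difference between genes that was not tested. Iigp1 (chromosome 18, 60376027 to 60392634, plus strand), which loads onto parasite vacuoles, was at 9.31, 3.46 and 5.83 CPM with vehicle, at 40.7, 32.2 and 45.8 CPM with tau and at 118, 138 and 125 CPM with HT-DNA. Its log2 fold change was 2.67 ± 0.17 with tau (6.36-fold) and 4.36 ± 0.16 with HT-DNA (20.5-fold). Ifi47 was at 45.2, 18.9 and 27.0 CPM with vehicle, at 129.5, 104 and 130.4 CPM with tau and at 208, 225 and 213 CPM with HT-DNA, with log2 fold changes of 1.99 ± 0.15 and 2.82 ± 0.15. For Iigp1 and Ifi47, as for the other 5 members, every tau and every HT-DNA library lay above every vehicle library, as it did for 21.7% of all genes with tau and 26% with HT-DNA. Tgtp2 rose from 1.82, 0.952 and 1.08 CPM to 8.18, 6.19 and 8.03 CPM with tau and to 19.2, 22.2 and 22.8 CPM with HT-DNA, log2 fold changes of 2.52 ± 0.21 and 4.05 ± 0.20. Tgtp1, with counts of 4, 3 and 3 in vehicle libraries, had 12, 10 and 8 counts with tau (log2 fold change 1.68 ± 0.63, adjusted p = 0.0406) and 12, 25 and 26 counts with HT-DNA (2.82 ± 0.56, adjusted p = 1.1e-04). With so few counts the tau call on Tgtp1 was lost when any of the 6 libraries was left out (adjusted p = 0.0609 to 0.144).

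Read against all genes, 15.8% of the 13675 genes tested were called higher with tau in WT cells, and 22.8% with HT-DNA. The median log2 fold change of the family was 1.68 with tau and 2.82 with HT-DNA, while that of all genes was -0.01 and -0.03. The 2 agents also differed from each other. Of the 7 members 6 were lower with tau than with HT-DNA, with 17.8% of all genes called lower, and the log2 differences were -0.60 ± 0.11 for Irgm1, -0.36 ± 0.11 for Irgm2, -0.68 ± 0.11 for Igtp, -1.69 ± 0.13 for Iigp1, -0.83 ± 0.14 for Ifi47 and -1.52 ± 0.16 for Tgtp2. Irgm2 lost its call without WT tau replicate 2 (adjusted p = 0.0799). Tgtp1 was at -1.15 ± 0.47 (adjusted p = 0.0576). Requiring a log2 difference beyond 1 left 2 members called, Iigp1 and Tgtp2, and 1.49% of all genes. Flt1, the endothelial marker that gave most of that list's signal, also rose in WT cells, by 0.28 ± 0.07 with tau and 1.57 ± 0.07 with HT-DNA, and the list summed to 86.4 to 97.7 CPM with vehicle, 98.8 to 123 CPM with tau and 273.9 to 277 CPM with HT-DNA. Astrocyte markers summed to 4.41 to 5.41, 7.56 to 10.3 and 10.4 to 13.3 CPM, and oligodendrocyte markers to 84.8 to 95.9, 64.4 to 87.1 and 110.2 to 117 CPM. Their part in the family's rise was not tested.

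**Figure D2:**
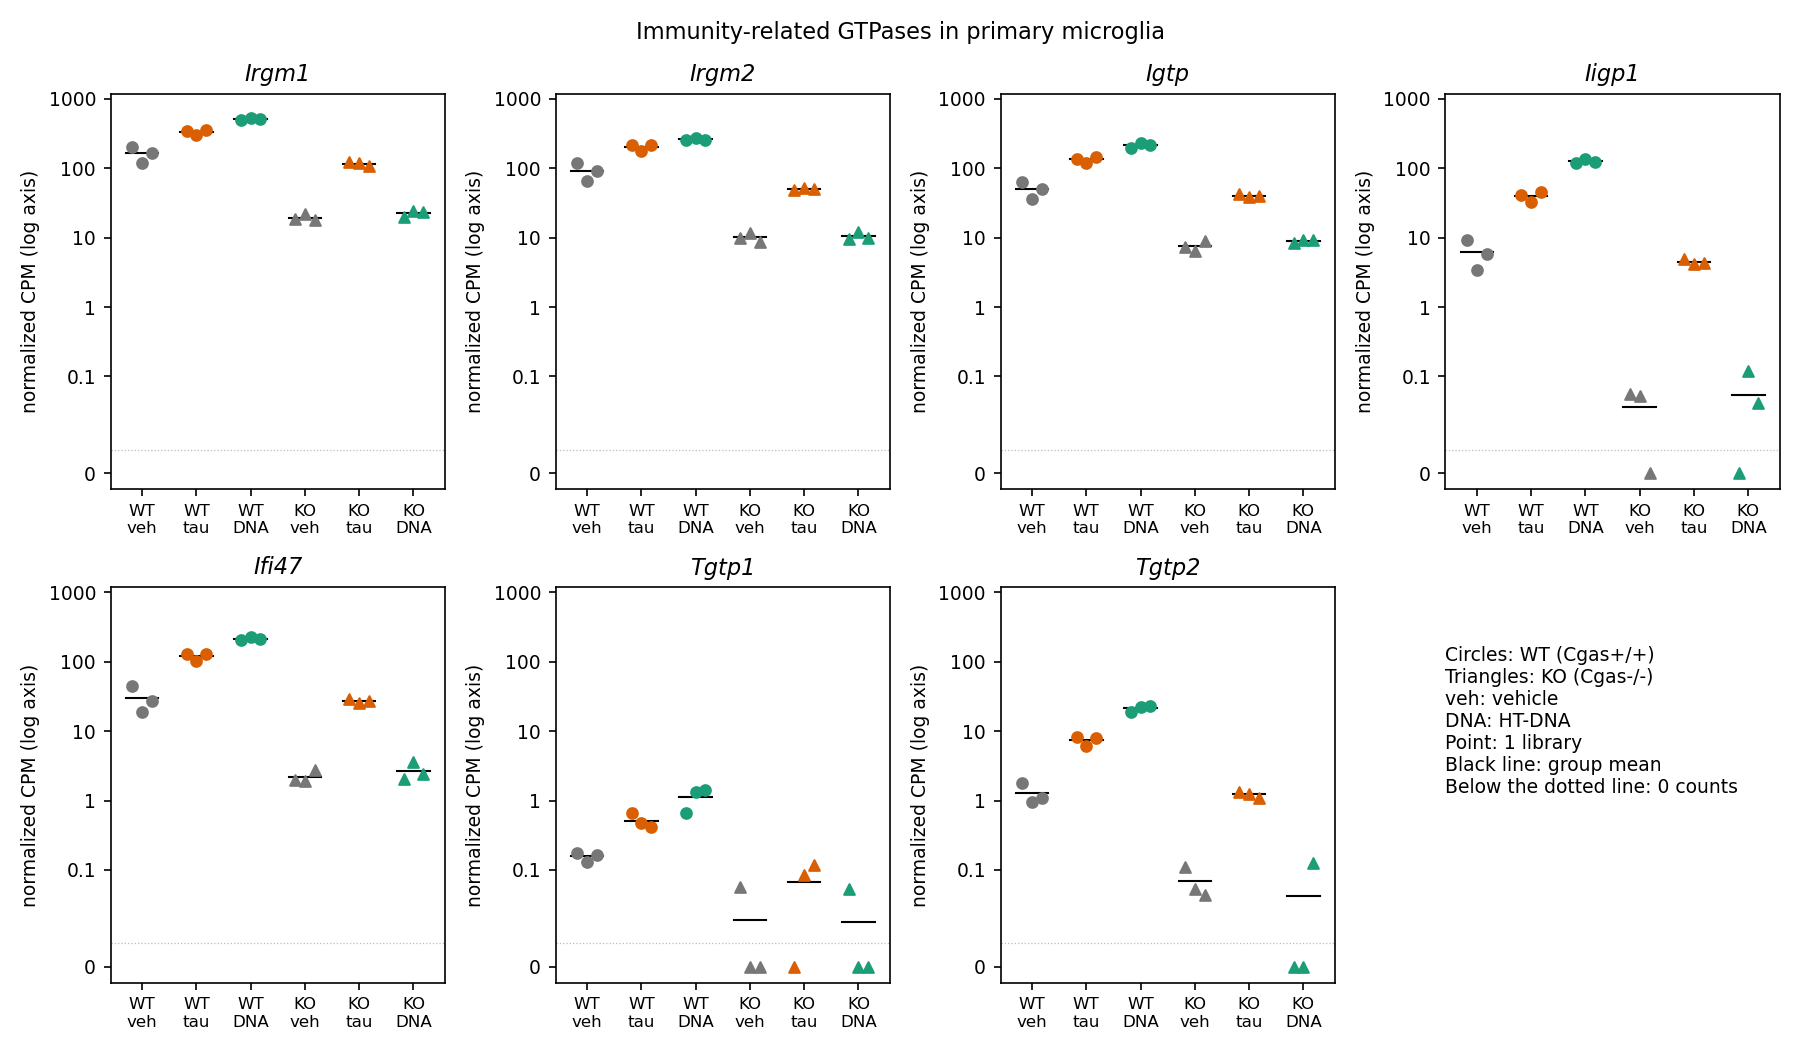
Normalized CPM of 7 IRG genes in 18 libraries of primary microglia, on a log axis with 0 counts drawn below the dotted line. Points are libraries, circles WT and triangles Cgas KO, and black lines are group means. For Irgm1, WT cells lay at 118 to 206 CPM with vehicle and 496 to 526 CPM with HT-DNA, whereas KO cells lay at 17.8 to 21.7 CPM with vehicle and 19.7 to 24.2 CPM with HT-DNA.

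In KO cells that received neither tau nor HT-DNA the family was low. All 7 members were lower in vehicle-treated KO than in vehicle-treated WT cells, with 27.3% of all genes called lower. KO libraries of Irgm1 held 18.7, 21.7 and 17.8 CPM, and the log2 difference from WT was -3.08 ± 0.13. For Irgm2 they held 9.99, 11.6 and 8.75 CPM (-3.19 ± 0.15), for Igtp 7.37, 6.46 and 8.97 CPM (-2.70 ± 0.16) and for Ifi47 1.95, 1.93 and 2.77 CPM (-3.75 ± 0.27). No KO vehicle library reached the lowest WT vehicle library for any member, and the same was so for 30.9% of all genes. Iigp1 was all but undetected, with 1, 1 and 0 counts in the KO vehicle libraries against 210, 80 and 108 in WT, a ratio of 185 in favour of WT with a counting interval of 51.0 to 1536. Tgtp2 had 2, 1 and 1 counts against 41, 22 and 20, a ratio of 19.3 (7.27 to 72.6), and Tgtp1 had 1 count in all against 10, a ratio of 9.32 (1.33 to 404). The edgeR call on Tgtp1 (adjusted p = 0.0389) was lost when any of 5 libraries was left out. The family's median log2 difference was -3.19, and that of all genes -0.01.

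Markers of microglia moved in the same direction, by less. The summed level of the 7 homeostatic markers was 2052 to 2171 CPM in KO and 3212 to 3317 CPM in WT vehicle libraries, and 5 of the 6 markers tested were called lower. The 5 general markers summed to 3064 to 3131 CPM in KO and to 4032 to 4091 CPM in WT, with 3 of 5 called lower. Their median log2 differences were -0.62 and -0.53. Astrocyte, fibroblast and endothelial markers also summed to less in KO than in WT vehicle cells, at 1.04 to 2.40, 0.05 to 0.22 and 20.6 to 24.8 CPM in KO against 4.41 to 5.41, 2.48 to 4.16 and 86.4 to 97.7 CPM in WT. Oligodendrocyte markers summed to 51.4 to 54.4 CPM in KO and to 84.8 to 95.9 CPM in WT, with 3 of 4 tested lower. The list of hippocampal neuron markers went the other way, at 44.1 to 46.5 CPM in KO and 27.5 to 28.9 CPM in WT, with 1 of 2 tested higher (Wfs1). The part of these differences between the cultures in the family's result was not tested.

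With tau, KO microglia raised 6 of the 7 members, with 11.2% of all genes called higher. Irgm1 reached 122, 119 and 107 CPM, a log2 fold change of 2.58 ± 0.13 against KO vehicle. Irgm2 reached 49.3, 52.1 and 49.8 CPM (2.33 ± 0.16), Igtp 42.0, 38.3 and 39.8 CPM (2.38 ± 0.16) and Ifi47 29.4, 25.5 and 27.6 CPM (3.60 ± 0.27). For 6 members, all but Tgtp1, each tau library lay above each vehicle library, where 17.4% of all genes did so. Iigp1 went from 2 counts over the 3 vehicle libraries to 111, 100 and 109 counts, a ratio of 133 with a counting interval of 36.5 to 1101. Tgtp2 went from 4 counts in all to 30, 30 and 28 counts, a ratio of 18.3 (6.88 to 68.5). Tgtp1 held 0, 2 and 3 counts and was not called (adjusted p = 0.440).

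HT-DNA gave no called change in KO microglia by edgeR or by DESeq2, and no member had an unadjusted p under 0.05 by edgeR. Of all genes 1.04% were called higher and 0.278% lower. Irgm1 was at 19.7, 24.2 and 23.7 CPM, Irgm2 at 9.59, 12.2 and 9.86 CPM, Igtp at 8.27, 9.11 and 9.28 CPM and Ifi47 at 2.07, 3.57 and 2.38 CPM. For each of the 7 genes the HT-DNA and vehicle libraries overlapped, where 17.2% of all genes did not overlap. For Irgm1 and Igtp the overlap came from HT-DNA replicate 1, the library that stood apart. Replicates 2 and 3 lay above all KO vehicle libraries, which reached 21.7 CPM for Irgm1 and 8.97 CPM for Igtp. Neither gene was called when any library was left out (adjusted p by edgeR at least 0.501 for Irgm1 and 0.595 for Igtp). The 95% interval of the HT-DNA effect was 0.956- to 1.43-fold for Irgm1, 0.814- to 1.37-fold for Irgm2, 0.890- to 1.52-fold for Igtp and 0.688- to 2.12-fold for Ifi47, so changes within these bounds are not excluded. Iigp1 with 4 counts in all, Tgtp2 with 3 and Tgtp1 with 1 were near the limit of detection. At matched dose and time the WT cells had changed by 2.83-fold to 20.5-fold. Without the filter on low counts, which alters the number of genes tested, Irgm1 was called in KO cells at a log2 fold change of 0.22, with 0.81% of 28651 genes called higher.

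The 2 agents therefore differed from each other in how genotype mattered, and both differences were tested. For HT-DNA the response was smaller in KO cells for 5 members, with 16.6% of all genes called so. The difference in log2 response was -1.43 ± 0.18 for Irgm1, -1.43 ± 0.22 for Irgm2, -1.89 ± 0.23 for Igtp, -2.55 ± 0.47 for Ifi47 and -4.58 ± 1.33 for Tgtp2. Tgtp2 rests on 4 and 3 counts in the KO groups and lost its call without KO vehicle replicate 1 (adjusted p = 0.0752). Iigp1 and Tgtp1, whose KO groups held 4 or fewer counts each, were not called (adjusted p = 0.346 and 0.369).

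For tau the log2 response was larger in KO cells for 5 members, with 3.61% of all genes called so. The difference was 1.53 ± 0.17 for Irgm1, 1.19 ± 0.20 for Irgm2, 0.95 ± 0.20 for Igtp, 1.61 ± 0.34 for Ifi47 and 4.15 ± 1.06 for Iigp1. Iigp1 rests on the 2 counts of KO vehicle and lost its call without KO vehicle replicate 3 (adjusted p = 0.0664). Tgtp2 (1.55 ± 0.73, adjusted p = 0.189) and Tgtp1 (0.05 ± 1.82) were not called. On the CPM scale the order was the other way. Tau added 175 ± 30.3 CPM (SE, n = 3 a group) of Irgm1 in WT and 96.7 ± 4.68 CPM in KO cells, 111 ± 19.9 and 40.3 ± 1.19 CPM of Irgm2, and 33.4 ± 4.31 and 4.41 ± 0.22 CPM of Iigp1. The added CPM in KO cells was 55.2% of that in WT for Irgm1, 38.2% for Igtp, 36.3% for Irgm2, 27.8% for Ifi47, 18.7% for Tgtp2 and 13.2% for Iigp1. The CPM rises are a description without a test, and the fold is taken from a starting level that was lower in KO cells.

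**Figure D3:**
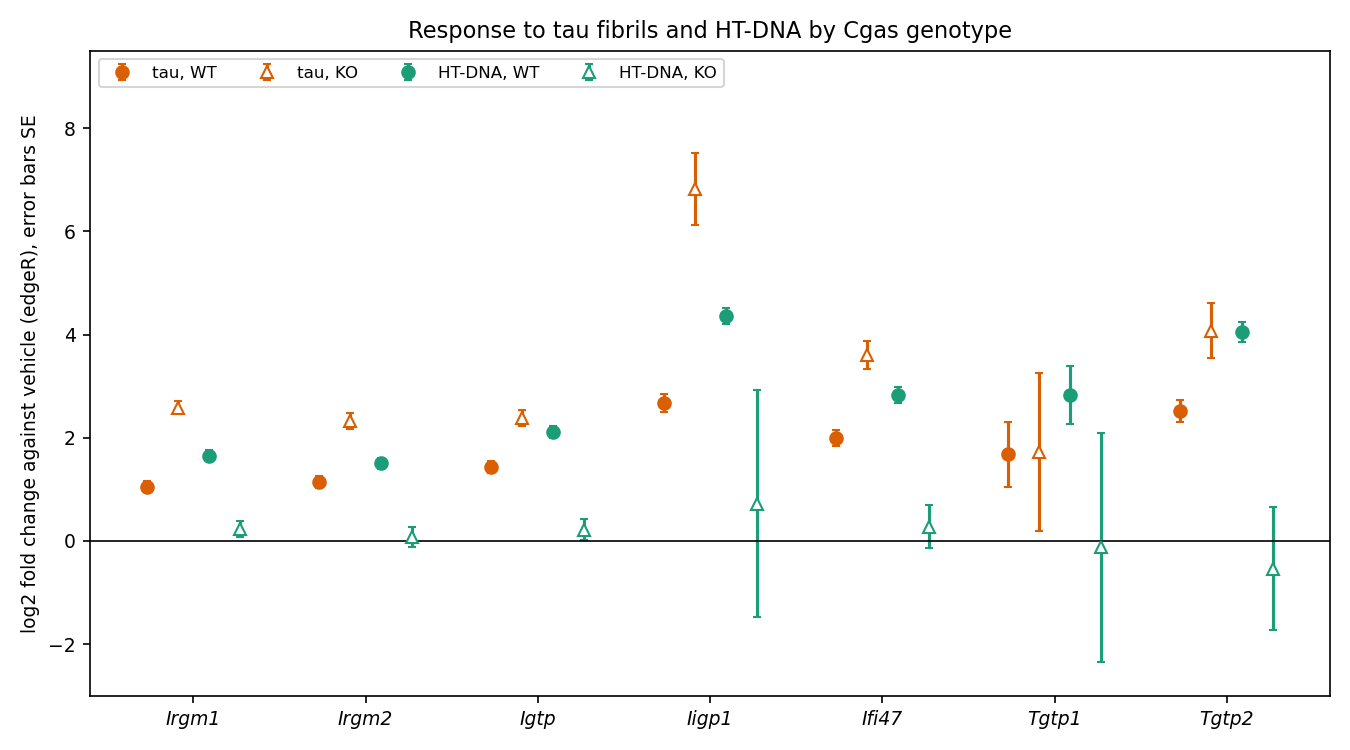
log2 fold change of 7 IRG genes against vehicle in microglia, from edgeR, with SE as error bars and filled circles for WT and open triangles for Cgas KO. KO responses to HT-DNA lie near 0 with wide bars where counts were few. KO responses to tau lie above the WT responses for Irgm1, Irgm2, Igtp, Iigp1, Ifi47 and Tgtp2, a difference that was not called for Tgtp2.

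Compared at the same agent, all 7 members were lower in KO than in WT cells with tau and with HT-DNA, with 26.2% and 30.1% of all genes called lower. With tau the log2 differences were -1.55 ± 0.11 for Irgm1, -2.01 ± 0.12 for Irgm2, -1.75 ± 0.12 for Igtp, -3.15 ± 0.17 for Iigp1, -2.14 ± 0.15 for Ifi47 and -2.60 ± 0.21 for Tgtp2. Tgtp1 had 30 counts over the 3 WT tau libraries and 5 in KO, a ratio of 7.36 with a counting interval of 2.83 to 24.3. With HT-DNA they were -4.51 ± 0.13, -4.62 ± 0.14 and -4.59 ± 0.14 for Irgm1, Irgm2 and Igtp, and -6.30 ± 0.21 for Ifi47. Iigp1 had 7029 counts over the 3 WT HT-DNA libraries and 4 in KO, a ratio of 2152 with a counting interval of 840 to 7902, and Tgtp2 1184 and 3, a ratio of 483 (165 to 2347). Tgtp1 had 63 and 1, a ratio of 77.2 (13.4 to 3096). The 3 tau-treated KO libraries were also set against WT cells that had received vehicle, a comparison added after the data were seen. In KO 3 members were lower, with 24.5% of all genes called lower, and the log2 differences were -0.50 ± 0.11 for Irgm1, -0.87 ± 0.12 for Irgm2 and -0.31 ± 0.12 for Igtp. Iigp1 (-0.48 ± 0.22), Ifi47 (-0.15 ± 0.17), Tgtp1 (-1.11 ± 0.89) and Tgtp2 (-0.08 ± 0.27) were not called. In 2 members, Irgm2 and Tgtp1, each KO tau library lay below each WT vehicle library, where 27.2% of all genes did so. Irgm1 and Irgm2 kept the call when any library was left out. Igtp kept it in 2 of 6 such fits, and lost it without WT vehicle replicate 1 or 3 or KO tau replicate 2 or 3 (adjusted p = 0.535, 0.0660, 0.0987 and 0.0721). Without WT vehicle replicate 1 the log2 difference was 0.27 for Ifi47 and 0.27 for Tgtp2, neither called, and without WT vehicle replicate 2 Iigp1 (-0.79) and Ifi47 (-0.41) were also called. The mean level in KO cells with tau was 54.7% (Irgm2) to 95.5% (Tgtp2) of the mean WT vehicle level in the 6 members other than Tgtp1, which was at 42.9%.

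The family varied together over the 18 microglial libraries. The Pearson r of log2 CPM between 2 members was 0.970 to 0.997 in the 15 pairs without Tgtp1 and 0.879 to 0.920 in the 6 pairs with Tgtp1. These values are a description over libraries of 6 groups that share treatment and genotype, and Tgtp1 has few counts. Among 13668 other genes, the 5 whose pattern was most like the mean of the members were Lgals9 (r = 0.998), Ifih1 (0.998), Parp10 (0.997), Samd9l (0.997) and Pml (0.997), where Lgals9 encodes galectin-9 and Ifih1 the RNA sensor MDA5. In the 13 hippocampi, the 15 pairs without Tgtp1 had r of 0.805 to 0.974 and the 6 pairs with Tgtp1 0.222 to 0.375. The most alike genes were Ifit2 (0.969), Parp14 (0.959), Gbp5 (0.956), Trim21 (0.954) and Ifi44 (0.954) among 16446.

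Other genes of the pathway are given by lists that were written down by name. Their counts stand beside the shares of all genes called. In WT cells 15.8% were called higher with tau and 22.8% with HT-DNA, and in KO cells 11.2% with tau. In KO against WT vehicle cells 27.3% were called lower. Shares called lower with tau, or with HT-DNA in WT cells, or higher in KO against WT cells, are not given here. The list of further IRG-related genes held 11 names, with alternative names of the same gene among them (Iigp1b or Gm4951, and Irgc1 or Irgc). Of these names 9 were in both tables, and 8 genes were tested in microglia. Of these 8, 6 were higher with tau in WT cells, 7 of 8 with HT-DNA, and 7 of 8 lower in KO vehicle cells. For 3 of these the log2 difference between KO and WT vehicle cells was -4.32 ± 0.27 (Gm12250, also called Irgb10), -2.74 ± 0.10 (Gm5431) and -7.26 ± 0.47 (Gm4951, with 2 counts in each KO vehicle library). The quiet relative Irgq, which has lost GTPase residues, went the other way, at -0.27 ± 0.07 with tau and -0.47 ± 0.07 with HT-DNA in WT cells. Of the 8 genes 6 were higher with tau in KO cells and none was called with HT-DNA.

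Among the interferon genes Ifnb1, which encodes interferon beta, was the only one that passed the filter. It had 71, 96 and 83 counts with HT-DNA in WT cells, 10, 0 and 3 with vehicle, and 11, 1 and 2 with tau. In KO cells it had 0 counts in all vehicle and HT-DNA libraries and 1, 0 and 0 with tau. Its rise with HT-DNA in WT cells was 4.44 ± 0.58 on the log2 scale, and that with tau was 0.24 ± 0.85 (adjusted p = 0.872). Ifng was at 0 counts in all 18 libraries, and Ifna1, Ifna2, Ifna4 and Ifna5 each had 5 or fewer counts in every library.

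Of the transcription factors that act between interferon and the members, 7 of 7 were higher with tau in WT cells, 6 of 7 with HT-DNA, and 6 of 7 with tau in KO cells, and none was called with HT-DNA in KO cells. Irf7 rose by 1.57 ± 0.12 with tau in WT and by 4.83 ± 0.17 in KO cells on the log2 scale. The tau response differed between genotypes for Irf7 and Irf9, both larger in KO, and the difference was 0.12 ± 0.15 for Irf1, which was not called. In KO against WT cells 6 of 7 were lower and 1, Irf8, was higher with vehicle (0.13 ± 0.04), as with tau, and 7 of 7 were lower with HT-DNA. Among those lower with vehicle were Irf1, Irf7, Irf9 and Nlrc5. Of the 7 receptors and kinases 5 were higher with tau in both genotypes, of which Jak2 changed most, by 1.14 ± 0.06 in WT and 0.58 ± 0.06 in KO cells. Of the 11 genes of the ATG8 conjugation machinery, which helps to place IRG proteins on membranes, 2 were higher and 3 lower with tau in WT cells, with a median of 0.01, and 2 were higher and 6 lower with HT-DNA, with a median of -0.18. These counts called higher were near the shares of all genes given above. In KO cells 1 was higher and 1 lower with tau and 0 were called with HT-DNA. In KO against WT vehicle cells 6 were higher and 0 lower, with a median of 0.13. Sqstm1 was 0.78 ± 0.05 higher with tau in WT and 0.46 ± 0.05 higher in KO.

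In hippocampi, Irgm1 and Igtp were higher in P301S than in Ntg mice, and the 5 other members were not called. Irgm1 was at 6.67 CPM at the lowest, 7.43 at the median and 9.66 at the highest in Ntg mice. In P301S mice it was at 25.2 CPM in mouse 29, 22.8 in mouse 36, 6.38 in mouse 43, 8.24 in mouse 63, 39.3 in mouse 65 and 26.3 in mouse 77. Mouse 43 fell just below the Ntg range and mouse 63 within it, and the other 4 lay above every Ntg mouse. The log2 difference was 1.46 ± 0.33 (adjusted p = 0.0443). Igtp ran from 2.21 to 3.37 CPM with a median of 2.53 in Ntg mice, and from 3.23 to 16.1 CPM with a median of 8.80 in P301S mice, a log2 difference of 1.60 ± 0.32 (adjusted p = 0.0303). Again 4 of 6 P301S mice lay above all Ntg mice, and of all genes tested 9.45% had at least 4 P301S mice above all Ntg mice. Of the 7 members 2 were called higher, where 1.39% of the 16453 genes tested were called higher and 0.122% lower.

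The other members ran alongside without passing the threshold. Irgm2 was at 2.98, 3.38 and 4.09 CPM (lowest, median and highest) in Ntg and 2.70, 6.79 and 13.5 CPM in P301S mice, with a log2 difference of 1.03 ± 0.30 (adjusted p = 0.0960). Iigp1 was at 0.986, 1.56 and 1.96 CPM against 0.877, 4.73 and 14.5 CPM (1.96 ± 0.51, adjusted p = 0.0654). Ifi47 was at 0.149, 0.560 and 0.760 CPM against 0.491, 1.23 and 2.80 CPM (1.37 ± 0.41, adjusted p = 0.102), and Tgtp2 at 0.198, 0.332 and 0.373 CPM against 0.330, 0.635 and 1.71 CPM (1.46 ± 0.41, adjusted p = 0.0835). In each of these genes 4 of 6 P301S mice, the same mice 29, 36, 65 and 77, lay above all Ntg mice. For Tgtp2, mouse 36 did so by 0.377 against 0.373 CPM. Tgtp1 differed, at 0.297, 0.724 and 0.958 CPM in Ntg and 0.231, 0.361 and 1.81 CPM in P301S mice, with 1 of 6 mice above all Ntg mice and a log2 difference of 0.09 ± 0.49. It was at 0.724 CPM or more in Ntg mice 35, 55, 62 and 68 and P301S mice 29 and 77. In the other mice it was at 0.379 CPM or less. The choroid plexus markers Ttr, Folr1 and Kcnj13 summed to 1944 to 5249 CPM in the former mice, highest in mouse 77. In the other mice they summed to 84.6 to 1295 CPM. The part of choroid plexus in the Tgtp1 values was not tested. The median log2 difference of the family was 1.46, and that of all genes 0.00.

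**Figure D4:**
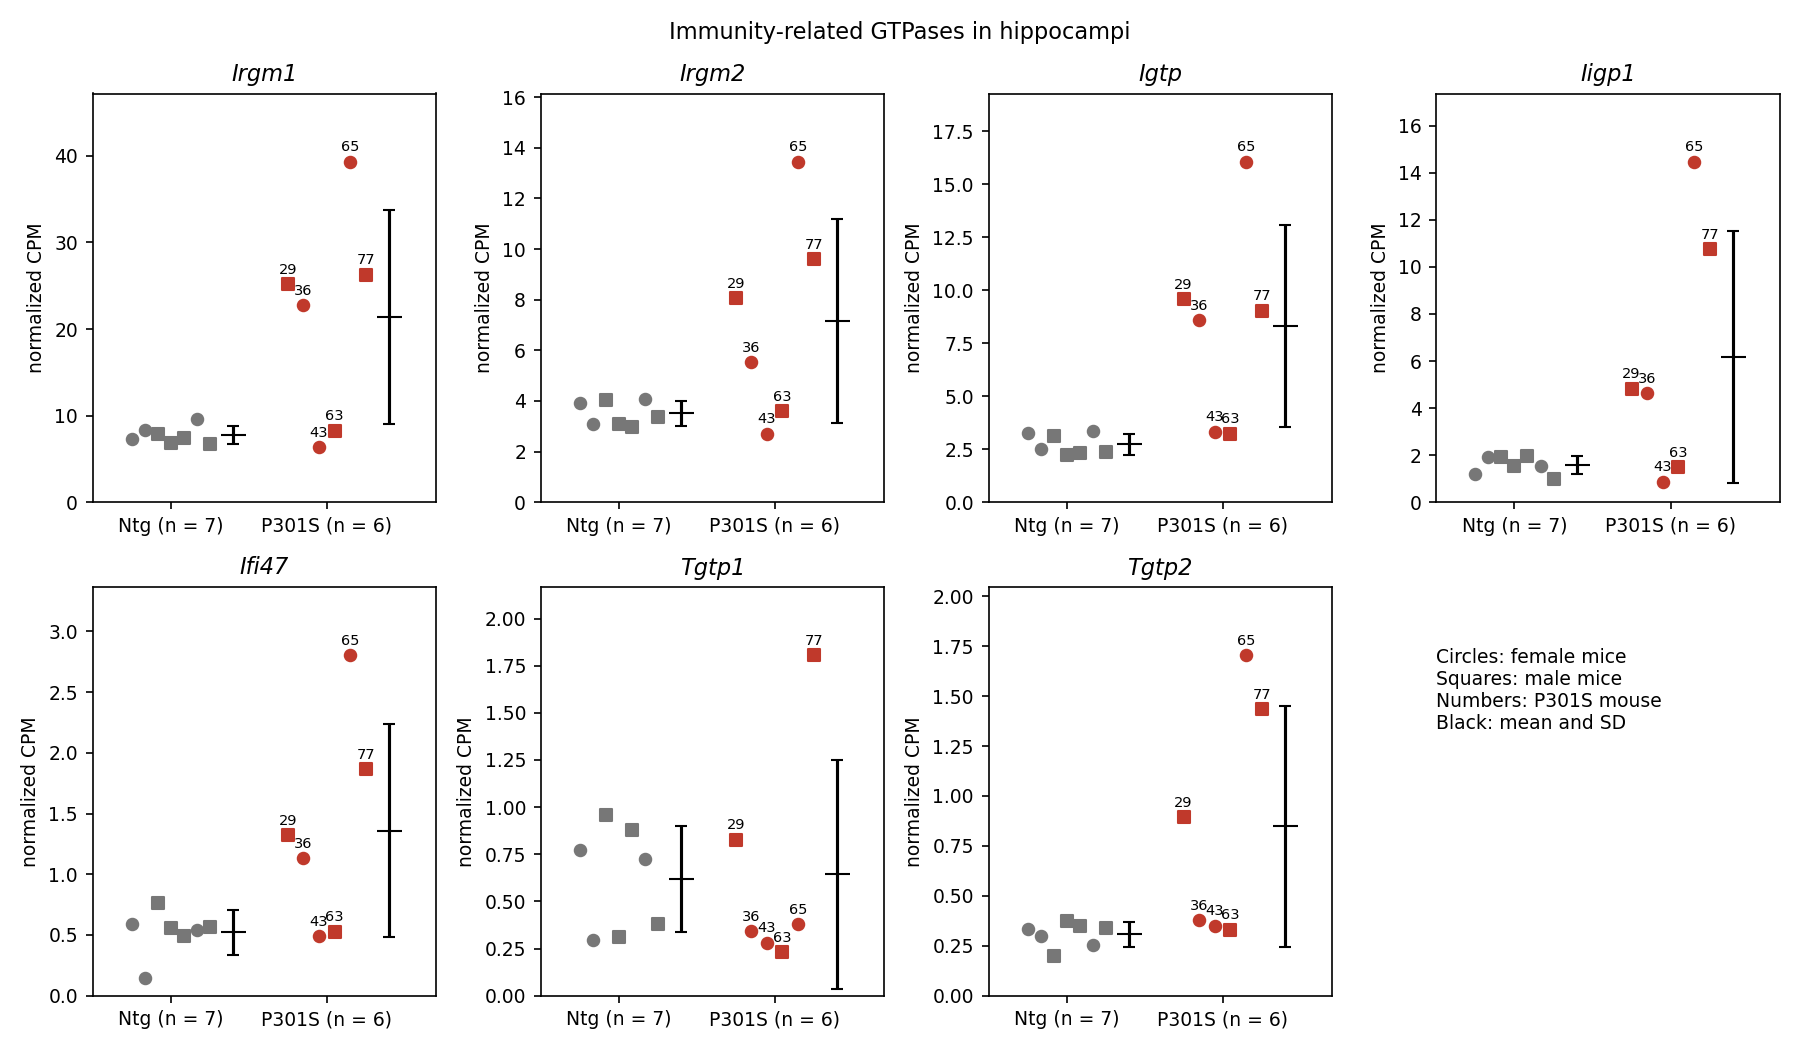
Normalized CPM of 7 IRG genes in hippocampi of 7 Ntg and 6 P301S mice, with the mean and SD beside each group, circles for females and squares for males. P301S mice 29, 36, 65 and 77 lie above the Ntg mice in 6 genes, whereas mice 43 and 63 lie within or below the Ntg range in all 7.

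An exact two-sided permutation test over the 13 mice, added after the data were seen and not adjusted over the 7 genes or any others, gave p = 0.0291 for Irgm1, 0.0350 for Irgm2, 0.00583 for Igtp, 0.0385 for Iigp1, 0.0315 for Ifi47, 0.930 for Tgtp1 and 0.0175 for Tgtp2, and these p-values change no call. The count of called members in hippocampi depended on single mice. Leaving out each of 13 mice in turn gave 0 called members in 9 fits, 1 in 2 fits (without Ntg mouse 55 or P301S mouse 77) and 6 in 2 fits (without P301S mouse 43 or 63). The share of all genes called higher moved as well, at 0.0854% to 0.147% in the 9 fits, 1.22% and 1.99% in the fits with 1 member, 4.53% without mouse 43 and 3.51% without mouse 63. DESeq2 called 6 members, all but Tgtp1, and 4.33% of the genes it tested were called higher. Relative to the Ntg mean, the median member was 2.91-fold in mouse 29, 2.16-fold in mouse 36, 5.36-fold in mouse 65, 3.40-fold in mouse 77, 0.825-fold in mouse 43 and 1.02-fold in mouse 63. Of the 4 high mice 2 were female and 2 male, as the 2 low mice were 1 of each. No sex difference in the effect was called for any member by edgeR or DESeq2 or at an unadjusted p under 0.05, and 0 of all genes were called, with 3897 of 16453 at an unadjusted p under 0.05. The log2 estimates of this difference in the members ran from -0.74 ± 0.87 (Ifi47) to 1.42 ± 0.90 (Tgtp1). Their SE was 0.64 to 1.08, so sex differences of such size are not excluded.

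The same 4 mice had more signal from microglial and astrocyte markers. The 5 general macrophage or microglia markers summed to 219 to 550.2 CPM in mice 29, 36, 65 and 77, to 104 and 110 CPM in mice 43 and 63, and to 87.9 to 103 CPM in Ntg mice, with 3 of 5 called higher (C1qa, Trem2 and Cd68). The 7 homeostatic markers summed to 527 to 727 CPM in the 4 mice, 336 and 378 CPM in mice 43 and 63 and 337 to 420 CPM in Ntg mice, with none called. Astrocyte markers summed to 4907 to 6542 CPM in the 4 mice, 3117 and 3174 CPM in mice 43 and 63, and to 3046 to 3661 CPM in Ntg mice. Oligodendrocyte markers overlapped the Ntg range. They summed to 5441 to 7378 CPM in the 4 mice, 3966 and 5164 CPM in mice 43 and 63, and 3145 to 6336 CPM in Ntg mice. Neuron markers overlapped it as well, at 5295 to 7075 CPM, 7286 and 7885 CPM, and 6120 to 8430 CPM. In mice 29, 36, 65 and 77 the hippocampal neuron markers (Prox1, Wfs1 and Neurod6) summed to 331, 383, 358 and 717 CPM. They summed to 430 and 433 CPM in mice 43 and 63, and to 473 to 633 CPM in Ntg mice. All P301S mice but mouse 77 thus lay below every Ntg mouse in this list. The part of this difference in the family's levels was not tested. The 6 T and NK cell markers summed to 3.37, 1.65, 2.05 and 2.98 CPM in mice 29, 36, 65 and 77, to 0.701 and 0.824 CPM in mice 43 and 63, and to 0.507 to 1.55 CPM in Ntg mice, where 5 of the 6 were at 3 or fewer counts in each mouse. The part of T and NK cells in the family's levels was not tested. With the mean of the homeostatic markers as a covariate, 0 members were called, with 0.128% of all genes called higher, and the log2 difference was 0.52 for Irgm1 and 0.78 for Igtp. In bulk tissue, more cells of a type and more RNA per cell cannot be told apart.

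Of the 7 transcription factors in hippocampi, 4 were called higher. They were Irf7 (2.42 ± 0.46), Nlrc5 (2.17 ± 0.42), Irf8 (1.56 ± 0.33) and Irf9 (1.24 ± 0.24). None of 7 receptors and kinases and none of 11 conjugation genes was called, with medians of -0.01 and 0.06. None of the 6 interferon genes was kept for testing, and the highest count in any hippocampus was 1 for Ifnb1 and 2 for Ifng. Of the further IRG-related genes 3 were tested and none was called, and 6 were removed as too low.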

How the data were processed

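Total RNA of hippocampi and of primary microglia was sequenced, as the labels state, from libraries of the QuantSeq 3′ FWD kit after extraction with a Zymo kit, whereas the study's methods name a Qiagen kit for hippocampi. The authors deposited raw read counts per Ensembl gene, not normalized. The submitters' processing notes name GRCm38, edgeR and limma, and the aligner and the counting tool are not given in the sources used here. From the deposited counts, edgeR 4.0.16 in R 4.3.3 was run (scaling by TMM, low genes removed by filterByExpr, quasi-likelihood test), with 1 fit over 13 hippocampi and 1 over all 18 microglial libraries. The groups came from the labels. Genes were called at a Benjamini-Hochberg adjusted p under 0.05 over all 16453 or 13675 genes tested, without a minimum fold. The SE is that of the unshrunk log2 fold change. Ratios for genes of 3 or fewer counts per library use summed counts with an exact 95% binomial interval, and cover counting error only.

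The members and the gene lists were chosen with earlier results of these data known. Each member is given in each comparison of groups, and the differences by sex are given as counts and a range only. Other pathway genes are given by counts and medians, and named by lowest p or, for Irf1, Irgq, Sqstm1 and Flt1 and where counts are described, after their values were seen. Coordinates and exons are from GENCODE M21 (GRCm38) and promoters from RefSeq (GRCm38.p6). No protein sequences were printed. Alternatives were DESeq2 1.42.0, RLE scaling, no filter, a minimum log2 fold of 0.5 (hippocampi) or 1 (microglia), Tgtp1 and Tgtp2 added together, sex or homeostatic microglial markers as a covariate, the replicate number as a block, only the compared groups in the fit, and each library left out in turn. Added after the data were seen were the comparison of tau-treated KO with vehicle-treated WT cells and the permutation test over mice. The fits were tested on simulated data with known changes. Plots and ranges were made in Python 3.11.15 with matplotlib 3.10.9.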

Additional observations from a re-analysis of the deposited data

Results flagged for a closer look

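In all, 10 differences between WT and Cgas KO microglia in the response to an agent were past the threshold of edgeR's interaction test. For tau the KO minus WT differences in log2 response were 1.53 (Irgm1), 1.19 (Irgm2), 0.95 (Igtp), 4.15 (Iigp1) and 1.61 (Ifi47), all in the direction of a larger log2 response in KO. For HT-DNA they were -1.43 (Irgm1), -1.43 (Irgm2), -1.89 (Igtp), -2.55 (Ifi47) and -4.58 (Tgtp2), all in the direction of a smaller response in KO. The values for Iigp1 with tau and for Tgtp2 with HT-DNA rest on 4 or fewer counts in a KO group. No single mouse stood outside its group by Dixon's test in any of 14 gene and group pairs in hippocampi. This test looks for a lone extreme value, and mice that lie low together, as P301S mice 43 and 63 did, can mask each other.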

How the results depend on the processing

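In P301S against Ntg hippocampi the count of called members was 6 with DESeq2, 1 with sex as a covariate and 0 with the homeostatic microglial markers as a covariate, against 2 in the main analysis. The share of all genes called with sex as a covariate is not given here, so that count is not read as particular to the members. Leaving out a mouse gave 0 to 6. Under the marker covariate Tgtp1 turned to -0.28, and over left-out mice it ran from -0.57 to 0.26. In Cgas KO cells with HT-DNA 1 member was called without the filter on low counts. With a minimum fold the count was 2 for tau against HT-DNA in WT cells and 0 for KO with tau against WT with vehicle, where leaving out a library gave 2 to 5. Directions changed when a library was left out for HT-DNA in KO cells in Irgm2 (-0.045 to 0.19), Iigp1 (-0.42 to 1.15), Ifi47 (-0.0069 to 0.49), Tgtp1 (-1.95 to 1.82) and Tgtp2 (-3.60 to 0.061), for Tgtp1 in the tau difference between genotypes (-0.58 to 1.99), and for Ifi47 (-0.41 to 0.27) and Tgtp2 (-0.27 to 0.27) in KO with tau against WT with vehicle.

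Replicate numbers did not pair the microglial libraries: the deviations of 45 same-numbered pairs correlated at -0.08 to 0.08, none over 0.1, and 3 of 18 libraries were closest to their own number. With the replicate number as a block, 6 members were called for tau in WT cells, Tgtp1 being lost, and the counts of the other comparisons were as before. The alternatives were also tallied by member, without the difference by sex, the minimum fold and the fits that left out a library. In this tally direction and call stayed as they were in 459 values, while 9 gained and 10 lost the call and 1 turned. Low counts limit what can be said of Tgtp1 in microglia with vehicle or tau and in KO cells, and of Iigp1 and Tgtp2 in KO cells with vehicle or HT-DNA.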
